A study of Rattus norvegicus with 5 samples.

Results

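The late stage of 2 DNA-damaging drugs was compared in the cultured rat lens: the MMS Day 4 array minus the Bleomycin Day 6 array. The members were the probe sets of the array with a gene name and a log2 signal of 5 or more in either of these arrays, 3320 of 36685 probe sets and of 19086 named ones. Whole lenses of 6-week-old male Sprague Dawley rats had been taken out and kept in serum-free medium, with the drug renewed daily, and total RNA of 1 lens sample per condition was read on 1 array. MMS Day 4 had received 1 mM methyl methanesulfonate (MMS) for 4 days and Bleomycin Day 6 had received 800 μg/mL Bleomycin for 6 days. MMS Day 2 and Bleomycin Day 2 had the same doses for 2 days, and Control had 4 days in medium alone. Control matched MMS Day 4 alone in days, so in the other treated arrays a difference from Control holds days of culture as well as drug. Since the late arrays differ in drug and in days of culture together, a difference between them cannot be told apart into drug and time. With 1 array a side there is no spread between replicates, no test and no p-value, and each number below describes these arrays. A signal is a log2 value, a difference is MMS Day 4 minus Bleomycin Day 6 on that scale, and a gene is called higher or lower in MMS Day 4 when the difference is at least 1, which is 2-fold. Where 5 signals of a gene stand in a row, they are those of Control, of MMS on Day 2 and Day 4, and of Bleomycin on Day 2 and Day 6.

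MMS adds methyl groups to the bases of DNA, and Bleomycin, held in a complex with a metal ion, cuts the DNA backbone. Both kinds of damage can activate the transcription factor p53, whose targets stop the cell cycle, repair DNA or lead to cell death, and which is itself held down by its target Mdm2. Cells also answer stress through ATF4, which turns on genes for amino acid supply, and through NRF2, which turns on detoxifying enzymes. Metallothioneins are small cysteine-rich proteins that bind zinc and copper, and their genes are switched on by the factor Mtf1 at metal response elements. The lens consists of a single front layer of epithelial cells and a mass of fiber cells that have lost their nuclei and are packed with crystallins.

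Metallothionein genes held the largest positive differences, and the upstream sequences of the neighbours Mt1 and Mt2A are shown because their promoters carry many copies of the core of the metal response element. They come from RefSeq (build GRCr8), end at the base before the start site, and have each match to TGCNCNC, on either strand, in capitals.
Mt1, chr19:10832976-10833175, minus strand: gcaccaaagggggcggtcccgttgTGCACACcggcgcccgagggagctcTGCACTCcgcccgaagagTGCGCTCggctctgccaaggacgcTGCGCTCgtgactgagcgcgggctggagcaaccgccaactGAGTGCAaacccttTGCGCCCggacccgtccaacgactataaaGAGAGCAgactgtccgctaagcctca
Mt2A, chr19:10838709-10838938, minus strand: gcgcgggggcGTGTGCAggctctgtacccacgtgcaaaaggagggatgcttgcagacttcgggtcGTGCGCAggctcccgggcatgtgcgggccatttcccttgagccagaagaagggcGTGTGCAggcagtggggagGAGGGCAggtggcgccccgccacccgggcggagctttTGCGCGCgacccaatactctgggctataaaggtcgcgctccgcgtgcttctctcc
The Mt1 stretch holds 7 matches and the Mt2A stretch 5, while the 250 bases before the start of Mt1f, which RefSeq places on chromosome X, hold 0. At least 5 matches were found in 0.361% of 27457 promoters over the same 250 bases, and at least 1 in 43.9%. Of the 21 genes called higher that have a promoter sequence, 33.3% had at least 1 match and 2 genes at least 5. Of the 136 genes called lower that have one, 54.4% had at least 1 match and 2 genes at least 5. Among the genes called lower in MMS Day 4, Trib3 and Chac1, targets of ATF4, carry the composite element of C/EBP and ATF factors, TGATGNAA on either strand, within the 60 bases printed for each.
Trib3, chr3:161275534-161275593, minus strand: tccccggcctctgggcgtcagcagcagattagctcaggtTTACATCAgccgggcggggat
Chac1, chr3:126795941-126796000, plus strand: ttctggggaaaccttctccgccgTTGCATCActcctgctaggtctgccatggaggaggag
The Trib3 match begins 21 bases and the Chac1 match 167 bases before the start site. This element was found in 3.27% of all promoters in the table, in 6 of the 136 genes called lower that the table holds (4.41%) and in 3 of the 15 measured ATF4 list genes it holds. A match is a string of letters and not a tested binding site.

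The late arrays were alike for most members, and the genes that were 2-fold apart were mainly lower in MMS Day 4. Of the 3320 probe sets, 28 were called higher (0.843%) and 162 lower (4.88%), and 3130 (94.3%) lay within 2-fold. The SD of the differences was 0.48, their median was -0.10, and 193 members (5.81%) had exactly equal values in both arrays. With probe sets averaged per gene, 25 of 3070 genes were higher (0.814%) and 153 lower (4.98%). The difference per gene ran from -3.09 (Tubb3) to 4.04 (Mt2A), with a median of -0.11, and 90% of the genes lay between -0.99 and 0.48.

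**Figure D1:**
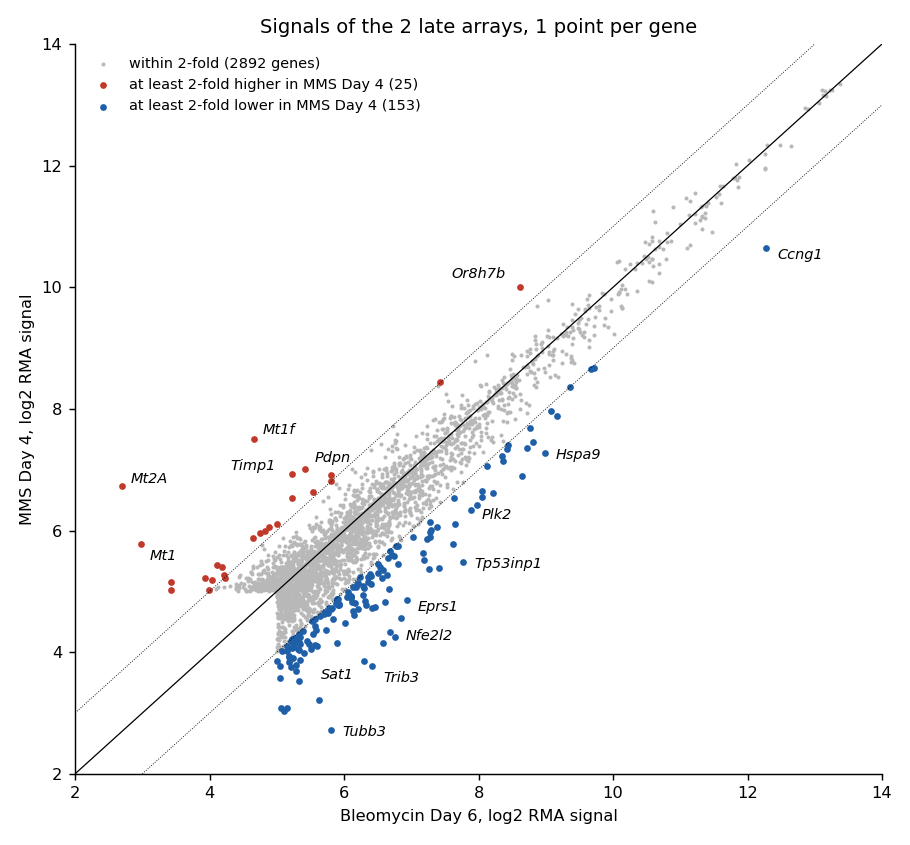
Log2 RMA signal of Bleomycin Day 6 (x axis) and MMS Day 4 (y axis), 1 point per gene for the 3070 genes with a signal of 5 or more in either array. The solid line marks equal signals and the dotted lines 2-fold; 25 genes (red) lie above the upper dotted line and 153 (blue) below the lower one, and the metallothioneins Mt2A, Mt1f and Mt1 lie farthest above.

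Called genes were most frequent at the lowest mean signals, where the filter favours them. Of the 324 genes with a mean signal under 5, 46 were lower and 11 higher. Such a gene is a member only when 1 late array is at 5 or more and the other under 5. From a mean signal of 5 up there was no such excess. Lower and higher genes were 64 and 6 of 1422 between 5 and 6, and 21 and 6 of 687 between 6 and 7. They were 12 and 1 of 325 between 7 and 8, and 9 and 1 of 224 between 8 and 10. Of the 153 lower genes, 91 passed the filter through Bleomycin Day 6 alone, and of the 25 higher genes 17 through MMS Day 4 alone, so the filter took them in through the array where they were high. Fewer named probe sets reached 5 in MMS Day 4 (2860) than in Bleomycin Day 6 (3110) or Control (3958), and the SD of all signals was smallest in MMS Day 4 (1.82, against 1.88 and 2.00). The part of these array-wide values in the results was not tested. Median centring moved the difference of every gene up by the same step, so that the member median became 0.08 and 68.1% of the 2-fold probe sets were lower, in place of 85.3%. The genes closest to the fold limit were Sars1 (-1.0005, inside), Nkx2-6 (1.0046, inside), B2m (0.9991, outside) and Btg1 (-0.99, outside). At the signal limit, Paf1 and Sema3b stood just inside with a difference of 0.00 each, and Tbc1d20 (-0.62) and Pcmtd2 (-0.33) just outside.

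The tissue label was checked on marker genes. All 8 fiber cell markers on the array passed the filter, and their lowest late signals were 7.50 (MMS) and 7.23 (Bleomycin). Of 11 epithelial markers 4 passed, namely Cdh1, Slc2a1, Aqp1 and Clu. No marker of retina, blood, macrophages, endothelium, cornea or fibroblasts passed, and 1 of 9 ciliary body and iris markers did (Mitf). In a whole lens, fewer cells of a type and less RNA per cell cannot be told apart.

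The metallothioneins were the group farthest apart in favour of MMS. Mt1, Mt1f and Mt2A, 3 of the 5 on the array, were measured, and all 3 were called higher, with a median of 2.84. Over all genes 0.814% were called higher. All 3 passed the filter through MMS Day 4 alone, the array where they were high. Mt2A had 5 signals of 8.43, 7.78, 6.73, 3.63 and 2.69. The late difference was 4.04, and since 2.69 lies under the median of all probe sets of the Bleomycin Day 6 array (2.98), its size is uncertain. Mt2A was below Control in all 4 treated arrays. Mt1f had 5.82, 7.05, 7.50, 4.13 and 4.66, a difference of 2.84. Mt1 had 4.32, 6.00, 5.78, 3.02 and 2.98, a difference of 2.80. Its Bleomycin Day 6 signal (2.978) is also just under the median of that array (2.983), so the size of this difference is uncertain too. For Mt1f and Mt1 the late arrays lay on opposite sides of Control. Mt1f was at 1.68 (MMS) and -1.16 (Bleomycin) from it, and Mt1 at 1.47 and -1.34. The gap between the drugs was there at equal culture time as well, with MMS Day 2 minus Bleomycin Day 2 at 4.15 (Mt2A), 2.91 (Mt1f) and 2.99 (Mt1).

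The 2 probe sets of Mt1 and of Mt2A each pointed the same way but not by the same amount. The brighter Mt1 probe set had late signals of 8.99 with MMS and 4.64 with Bleomycin, a difference of 4.35, and the dimmer one 2.57 and 1.31, a difference of 1.26. The brighter Mt2A probe set had 9.49 and 4.02, a difference of 5.46, and the dimmer one 3.97 and 1.36, a difference of 2.61. Metallothionein genes form a family of similar sequence, and whether the probes of one also read another was not tested, so the split among the 3 genes is uncertain. The brain and epithelial forms Mt3 and Mt4 stayed under the filter, with differences of 0.29 and 0.27. Of the zinc and copper list, 3 of 22 genes were measured: the copper importer Slc31a1 differed by -0.13, the zinc importer Slc39a1 by -0.11, and Mtf1 by 0.00.

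**Figure D2:**
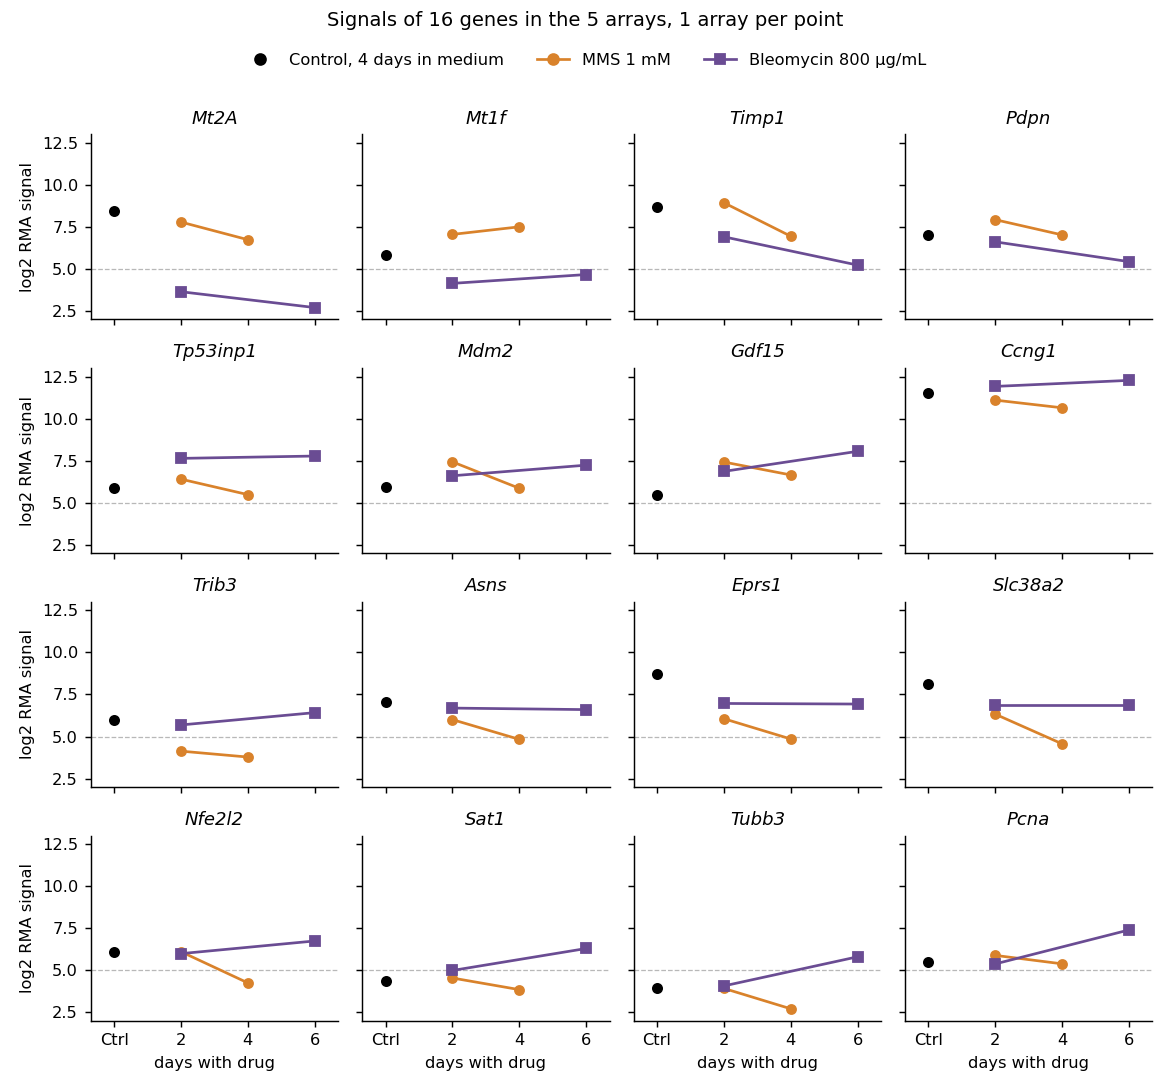
Log2 RMA signal (y axis) of 16 genes in Control (black), MMS Day 2 and Day 4 (orange circles) and Bleomycin Day 2 and Day 6 (purple squares), 1 array per point, with days with drug on the x axis and the signal limit of 5 as a dashed line. Mt2A, Mt1f, Timp1 and Pdpn were higher with MMS at both times, Tp53inp1 and Trib3 were lower with MMS at both times, and Nfe2l2, Sat1, Tubb3 and Pcna were within 0.51 of each other on Day 2 and more than 2 apart in the late arrays.

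Genes that p53 turns on were lower in MMS Day 4 as a group. Of 37 on the array 17 were measured, 12 were called lower and 0 higher, and the median difference was -1.32, against 4.98% lower and a median of -0.11 over all genes. Relative to Control, the median of the list was -0.05 with MMS and 1.04 with Bleomycin late, both read against the same 4-day Control array. Of the 12 genes with a signal of 5 or more in both late arrays, 8 were lower and the median was -1.30, while over all 37 genes without a filter it was -0.28. On Day 2 the same list had a median of -0.29 with 1 gene higher and 1 lower.

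Tp53inp1, a p53-induced stress protein, had 5.88, 6.40, 5.48, 7.63 and 7.77. It was 4.91-fold lower in the late MMS array and was lower with MMS on Day 2 too. Mdm2, the ubiquitin ligase that removes p53, had 5.91, 7.43, 5.85, 6.60 and 7.23. Its order was reversed on Day 2, when MMS was 0.83 above Bleomycin, against -1.38 in the late arrays. Gdf15, a secreted stress cytokine, followed the same course with 5.44, 7.42, 6.65, 6.86 and 8.05, a late difference of -1.41. All 3 signals stood at or above 5 in each of the 5 arrays.

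Ccng1, the p53 target cyclin G1, had 11.53, 11.10, 10.64, 11.92 and 12.28 and was 3.10-fold lower in MMS Day 4. Plk2, a stress-induced kinase, was far above its Control signal of 4.06 in both late arrays, at 6.33 with MMS and 7.89 with Bleomycin. Its relative Plk3 reached 5.14 in Bleomycin Day 6 alone, against 2.59 to 3.08 in the other 4 arrays. Eda2r, a receptor of the TNF receptor family, had 2.91, 5.26, 3.53, 5.82 and 5.34, so it was above Control on Day 2 with both drugs. The cell cycle inhibitor Cdkn1a (p21) was not called, with 6.68 and 7.61 and a difference of -0.93, and both values were above the 5.32 of Control.

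Gadd45b, a growth arrest and DNA damage inducible protein, was the only measured gene of the list with a positive difference, 0.94. The list members Ei24 (-1.32), Ptp4a1 (-1.29), Ppm1d (-1.21) and Phlda3 (-1.17) and Gadd45b are named after their values were seen, and Ddit4 (-1.34) also belongs to the ATF4 list. Pcna, the sliding clamp of DNA polymerases, belongs to the proliferation list and had 5.49, 5.89, 5.39, 5.38 and 7.41. It stood out in the late Bleomycin array alone and was 4.05-fold lower in MMS Day 4. Of the repair lists, 9 base excision, alkylation and nucleotide repair genes were measured and 0 were called, with Ddb1 at -0.54, Polb at -0.42 and Apex1 at 0.27. The double-strand break list had 2 measured genes of 38, Wdr48 (-0.17) and Xrcc6 (-0.07), so it could not be described at these signals.

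Some ATF4 targets, tRNA synthetases and translation factors were lower in MMS Day 4, and most members of these lists were within 2-fold. Of 33 ATF4 list genes 17 were measured, 4 were lower, 0 were higher, and the median was -0.49. Over all genes 4.98% were lower and the median was -0.11. Trib3, Asns and Ddit4 passed the filter through Bleomycin Day 6 alone: with a signal of 5 in both late arrays 1 of 13 was lower and the median was -0.43, and over all 33 genes without a filter it was -0.09. Trib3, a pseudokinase, had 5.98, 4.13, 3.78, 5.69 and 6.42, a 6.25-fold difference in the late arrays. Asns, which makes asparagine, had late signals of 4.83 with MMS and 6.60 with Bleomycin, from 7.04 in Control. Chac1, which degrades glutathione, had 6.11 and 7.64, from 8.08 in Control. Relative to Control, the median of the ATF4 list was -0.96 with MMS and -0.31 with Bleomycin late, both read against the same 4-day Control. Both MMS arrays were below both Bleomycin arrays for Trib3, Asns and Chac1. The mTOR inhibitor Ddit4 differed by -1.34 and the folate enzyme Mthfd2 by -0.95. Atf4 itself differed by -0.49, and within the same list Atf3 and the serine enzyme Psat1, both chosen after their values were seen, were at 0.43 and 0.55.

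The amino acid transporter Slc38a2, which brings in neutral amino acids, had 8.10, 6.33, 4.56, 6.85 and 6.85, a late difference of -2.29. The transporter Slc7a8 lay on the other side, at 5.03 with MMS and 4.09 with Bleomycin late, from 8.90 in Control. Of 19 measured tRNA synthetases 4 were lower, against 4.98% of all genes, and the median was -0.46. At a signal of 5 in both arrays 3 of 15 were lower, and without a filter the median was -0.11. Eprs1, which charges 2 tRNAs, had 8.72, 6.06, 4.85, 6.97 and 6.93, and both MMS arrays were below both Bleomycin arrays. Yars1 (-1.06), Gars1 (-1.03) and Sars1 stood near the fold limit, and after median centring Eprs1 was the only one called.

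Of 43 measured translation factors 7 were lower, 37 were below 0, and the median was -0.51. Over all 3070 genes 4.98% were lower and 61.5% were below 0. The initiation factor subunit Eif3a had 6.62 with MMS and 8.21 with Bleomycin late, the ribosome recycling factor Abce1 4.83 and 6.32, and the helper of mRNA unwinding Eif4b 7.46 and 8.82. Eif2s1, the subunit whose phosphorylation lowers translation, differed by -1.08. With a signal of 5 in both arrays 6 of 37 were lower, without a filter the list median was -0.15, and after median centring 3 of the 7 were still called. Genes for the proteins of the ribosome itself were near the middle of all genes. Of 79 measured cytosolic ribosomal protein genes 1 was lower (Rpl7l1, -1.54), 0 were higher, and the median was -0.10. Of 41 measured mitochondrial ribosomal protein genes 1 was lower, and their median was 0.00.

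Chaperones and protein turnover showed smaller differences. Hspa9, the mitochondrial member of the HSP70 family, had signals between 8.39 and 8.99 in all arrays but MMS Day 4, where it had 7.27, a difference of -1.72. It was the 1 gene called among 20 measured heat shock genes, which had a median of -0.40, and its partners in the mitochondrion Hspd1 and Hspe1 were at -0.97 and -0.67. Of 35 measured autophagy and lysosome genes 4 were lower, with a median of -0.19: the autophagy receptor Sqstm1 (-1.67), the proton pump subunits Atp6v1d (-1.55) and Atp6v1b2 (-1.07), and Atg12 (-1.10). After median centring 2 of these 4 were called. Grn, which encodes the lysosomal protein progranulin, had 7.62, 5.95, 4.33, 5.81 and 6.68, with its lowest signal in the late MMS array. Of 62 measured ubiquitin enzymes 5 were lower, led by Usp2 (-1.45) and Rnf4 (-1.36), with a median of -0.10. All 5 passed the filter through Bleomycin Day 6 alone, and of the 49 with a signal of 5 in both arrays 0 were lower. Of 36 proteasome subunits 0 were called, with a median of -0.20. In the secretion list, clathrin heavy chain Cltc (-1.30), Rab1a (-1.28) and Ap1m1 (-1.03) were lower among 25 genes, and at a signal of 5 in both arrays 1 of 19 was. Ap1m1 was under 2-fold after median centring (-0.85) and after quantile normalisation of the pair (-0.98). Over all 3070 genes 4.98% were lower.

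**Figure D3:**
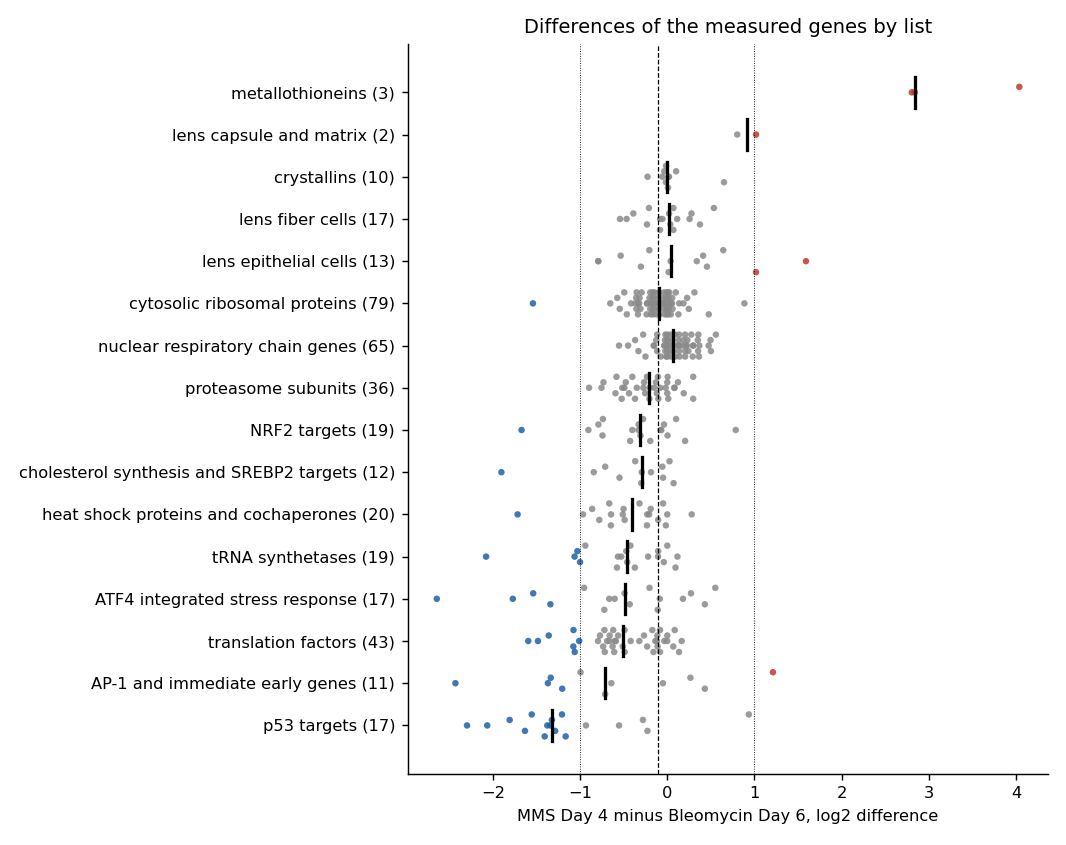
MMS Day 4 minus Bleomycin Day 6 (x axis, log2) for the measured genes of 16 lists (y axis, number of measured genes in brackets), with red for genes at least 2-fold higher, blue for genes at least 2-fold lower, a bar at each list's median, dotted lines at 2-fold and a dashed line at the median of all 3070 genes, -0.11. The metallothioneins lie to the right (median 2.84) and the p53 targets to the left (median -1.32), and the crystallins have a median of 0.00 and run from -0.23 to 0.65.

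The gene for NRF2 was lower in MMS Day 4, and 1 of its measured targets was called. Nfe2l2, which encodes NRF2, passed the filter through Bleomycin Day 6 alone. It had 6.11, 6.11, 4.25, 6.00 and 6.75, a 5.65-fold difference. Of its 19 measured targets 1 was lower (Sqstm1), 0 were higher, 15 were below 0, and the median was -0.31, against 61.5% of all genes below 0 and 4.98% lower. Nqo1, a quinone reductase, had 3.55, 7.64, 5.43, 4.08 and 5.76. The drugs were 3.56 apart for Nqo1 on Day 2 and -0.33 apart in the late arrays, where both lay above Control. Gstp1, a glutathione transferase, was likewise 2.32 apart on Day 2 and 0.78 late. The haem-degrading enzyme Hmox1 had 10.11 in Control, with 6.65 (MMS) and 7.39 (Bleomycin) late. In the peroxide defence list 0 of 15 measured genes were called, with catalase (Cat) at -0.71 and the glutathione synthetase Gss at 0.68.

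Immediate early genes, which answer growth and stress signals within minutes, were called in both directions. Dusp1, a phosphatase that switches off MAP kinases, had 6.99, 5.12, 4.15, 4.75 and 6.58. Fos (5.27 with MMS and 6.64 with Bleomycin late), Klf6 (3.91 and 5.25) and Klf4 (4.90 and 6.11) were lower as well, while Egr1 (5.40 and 4.19) was higher. Dusp1, Klf6 and Klf4 passed the filter through Bleomycin Day 6 alone and Egr1 through MMS Day 4 alone. Of the 11 measured genes 4 were lower and 1 was higher, and the median was -0.71. Over all genes 4.98% were lower, 0.814% were higher and the median was -0.11. The 6 with a signal of 5 in both arrays had a median of -0.35, with Fos the 1 gene called. Without a filter the list median was -0.23. Rgs2, a brake on G protein signalling, reached 5.11 in Bleomycin Day 6 alone, against 2.93 to 3.18 in the other arrays. The MHC class I gene RT1-CE5 showed the same shape, with 5.06 against 2.51 to 3.38. Its partner B2m lay the other way with a difference of 0.9991, just under the fold limit, and was not called.

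Other genes far lower in MMS Day 4 had varied roles. Tubb3, a beta tubulin best known from neurons, had 3.93, 3.93, 2.71, 4.07 and 5.81. The difference was -3.09, and since 2.71 lies under the median of all probe sets of the MMS Day 4 array (3.02) and the Control signal is under the filter, its size and the place of MMS Day 4 relative to Control are uncertain. Sat1, which acetylates polyamines, had 4.39, 4.55, 3.85, 4.99 and 6.30, with the highest signal in Bleomycin Day 6. Taf7, a subunit of the general transcription factor TFIID, had 5.77, 4.81, 3.21, 5.10 and 5.63, with the lowest in MMS Day 4. Msmo1, an enzyme of cholesterol synthesis, differed by -1.90, and the other 11 measured genes of its list were within 2-fold, with a list median of -0.30. The clock repressor Ciart was lower by a difference of -1.69, the tumour suppressor Rb1 by -1.48 and the splicing protein Hnrnpu by -1.34. The histone genes H2bc8 (-1.21) and H2az1 (-1.04) were also lower, H2az1 by -0.85 after median centring. Of the 15 measured histone genes these were the 2 called, 8 were above 0 and the median was 0.09. With a signal of 5 in both arrays 0 of 12 histone genes were called. Over all genes 4.98% were lower.

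Beyond the metallothioneins, the genes higher in MMS Day 4 included Timp1, Pdpn, Tagln2 and Tuba1c. Timp1, an inhibitor of matrix metalloproteinases, had 8.67, 8.93, 6.94, 6.90 and 5.22. It was lower late than on Day 2 with either drug, and MMS was above Bleomycin both times (2.03 on Day 2 and 1.72 late). Podoplanin (Pdpn), a membrane glycoprotein, had 7.04, 7.92, 7.02, 6.60 and 5.42, a difference of 1.59. Tagln2, an actin-binding protein, had 6.12, 6.66, 5.43, 4.88 and 4.11, and the alpha tubulin Tuba1c 5.78, 6.91, 5.99, 4.80 and 4.83. For these 4 genes both Bleomycin arrays lay below Control. The list of actin, tubulin and actin-binding genes, as a whole, had 2 of 35 measured genes higher and 1 lower, with a median of -0.12. Over all genes 0.814% were higher and 4.98% lower. At a signal of 5 in both arrays 0 of 30 genes of the actin list were called. Of the 4 measured epithelial markers, 3 were at least 2-fold higher with MMS on Day 2, against 0.782% of all genes, with a median of 1.21. The late filter left out the other 7 of the 11 markers on the array, which pointed both ways on Day 2. Among these, MMS minus Bleomycin was 3.52 for Gja1, 0.95 for Pax6 and 0.37 for Pdgfra. It was -0.11 for Col4a1, -0.16 for Foxe3 and -0.19 for Mab21l1. In the late pair 0 of the 4 measured markers were called, 3 were below 0 and the median was -0.50. All 4 were at least 2-fold below Control in both late arrays, with medians of -3.03 (MMS) and -2.68 (Bleomycin). Over all genes 17.7% (MMS) and 9.48% (Bleomycin) were that far below Control. The part of epithelial cells in the differences of Timp1, Pdpn, Tagln2 and Tuba1c was not tested.

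Sparc, a matrix protein of the lens capsule, was higher by 1.02, and the basement membrane protein Nid1 differed by 0.80; they were the 2 measured genes of 52 in the capsule list. Sparc (10.01 in Control, 8.44 with MMS and 7.42 with Bleomycin) lay below Control in both. Pdpn and Sparc were also the 2 called genes among 13 measured epithelial genes, whose median was 0.04. Over all genes 0.814% were called higher. Of those 13, 7 with MMS and 9 with Bleomycin were, late, at least 2-fold below the shared Control array. Over all genes these shares were 17.7% with MMS and 9.48% with Bleomycin. Their other leading members pointed both ways: Clu, a secreted chaperone, and the glucose transporter Slc2a1 were at -0.79 each, and E-cadherin (Cdh1) was at 0.64.

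Rbm3, a cold-inducible RNA-binding protein (1.11), the glycolytic enzyme Eno3 (1.17) and the glycerol phosphate enzyme Gpd1 (1.06) were higher as well. Sparc, Rbm3 and Gpd1 were under 2-fold when the arrays were centred on olfactory receptor probe sets (0.87, 0.97 and 0.91). The beta-defensin Defb11 had 5.03 in MMS Day 4 and 3.40 to 3.45 in the other 4 arrays. The immunoglobulin-like Ighl13 (1.71), the olfactory receptor Or8h7b (1.38), the keratin-associated Krtap12-2 (1.31), the lipid kinase Pip5k1b (1.29), the tetraspanin Tspan6 (1.22) and Tmem258l1 (1.21) completed the 15 largest positive differences. Of the 8 measured olfactory receptors only Or8h7b was called, while 0.814% of all genes were called higher.

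The RNA signals of genes for the main proteins of the fiber cell hardly differed. Of 10 crystallin genes 10 were measured and 0 called, with a median of 0.00 after rounding. Crygn differed most, with 10.19 in Control, 11.25 with MMS and 10.60 with Bleomycin late, a difference of 0.65, and the alpha crystallin Cryab differed by -0.02. The brightest crystallin probe sets lay at the upper end of the signals, where differences can be compressed. Of 17 measured fiber cell genes 0 were called, with a median of 0.02, among them the water channel Mip (0.37), the actin-capping protein Tmod1 (-0.54) and Ank2 (0.53). The transcription factor Maf, which drives crystallin genes, had 9.24 in Control, 8.37 with MMS and 7.40 with Bleomycin late, a difference of 0.97. None of 65 nuclear respiratory chain genes was called (median 0.06), and the mitochondrially encoded COX1, COX2 and COX3 were at -0.35, -0.59 and -0.45. No probe set carried the symbol Cryaa, and Gapdh stood only on probe sets that list several symbols, so neither was read.

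The genes called in the late pair were then read in the Day 2 pair, which had equal culture time and shares no array with the late pair, although all 5 arrays were normalised together. On Day 2, 24 of the 3070 genes were higher (0.782%) and 13 lower (0.423%) in MMS. Of the 153 genes lower late, 115 (75.2%) were below 0 on Day 2, with a median of -0.22 and 5 at least 2-fold lower, while 45.6% of all genes were below 0. Of the 25 genes higher late, 19 (76%) were above 0, with a median of 0.52 and 7 at least 2-fold higher, while 37.5% of all genes were above 0. No gene was 2-fold apart in opposite directions in the pairs. The 5 genes lower in both pairs were Trib3, Tp53inp1, Chac1, C10h17orf58 and Pln, and the 7 higher in both were Mt1, Mt1f, Mt2A, Timp1, Tagln2, Tuba1c and Pdpn. Pln was under 2-fold in the late pair after median centring (-0.84) and after quantile normalisation (-0.97). C10h17orf58 was chosen after its values were seen.

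**Figure D4:**
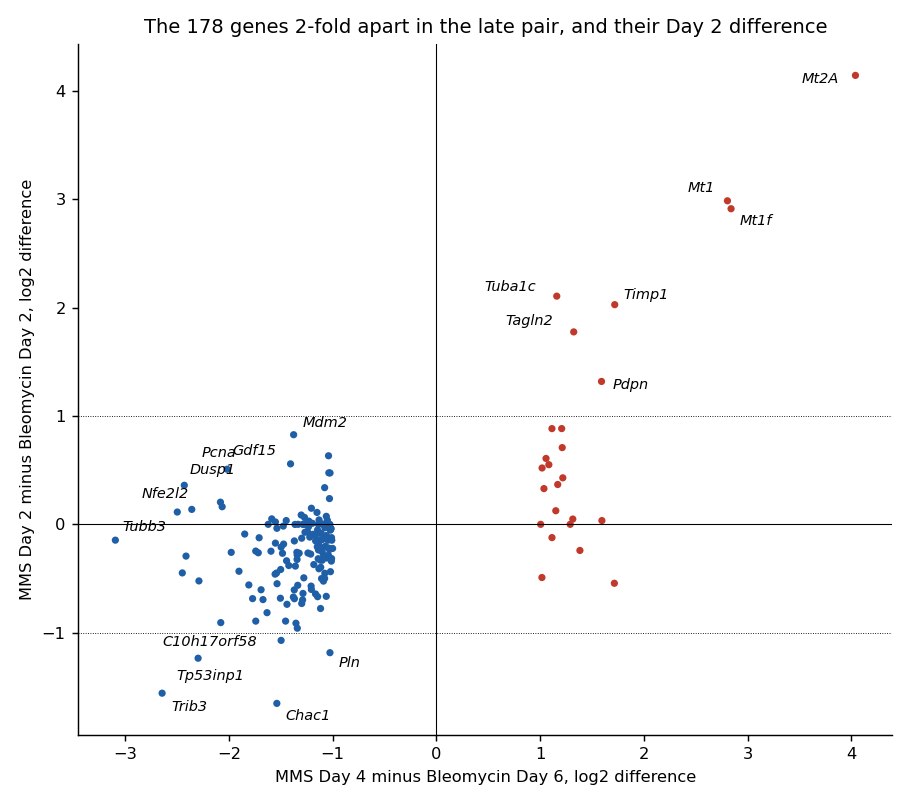
Late difference (x axis, MMS Day 4 minus Bleomycin Day 6, log2) and Day 2 difference (y axis, MMS Day 2 minus Bleomycin Day 2, log2) of the 178 genes called in the late pair, with dotted lines at 2-fold on Day 2. The 3 metallothioneins lie at the upper right in both pairs, 7 red genes lie above the upper dotted line and 5 blue genes below the lower one, and most blue genes lie between 0 and -1 on Day 2.

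The called genes were set against Control, as a description, since they were chosen on the same late signals and 91 of the lower ones entered through Bleomycin Day 6 alone. Of the 153 lower genes, 106 were at least 2-fold below Control in MMS Day 4, and 11 with late Bleomycin, with median differences from Control of -1.34 and -0.11. In Bleomycin Day 6, 19 of them were at least 2-fold above Control, against 2 in MMS Day 4. Between Day 2 and the late time their median difference was -0.98 with MMS and 0.08 with Bleomycin. Of the 25 higher genes, 14 were at least 2-fold below Control in Bleomycin Day 6 and 7 at least 2-fold above it in MMS Day 4, with medians of -1.16 and 0.21. From Day 2 to the late time their medians were -0.30 with MMS and -0.95 with Bleomycin. Over all 3070 genes, 17.7% were at least 2-fold below Control in MMS Day 4 and 9.48% in Bleomycin Day 6, and 1.56% and 1.79% at least 2-fold above it. Their medians against Control were -0.29 for late MMS and -0.12 for late Bleomycin, and these comparisons share the Control array. Control had the 4 days of culture of MMS Day 4 and not the 6 days of Bleomycin Day 6.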

How the data were processed

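Total RNA of cultured rat lenses had been hybridised to Rat Gene 2.0 ST arrays, 5 in all and 1 per condition. The deposited values are log2 signals that the authors made with RMA in R, which corrects background, normalises between arrays and summarises probe sets. They were used as deposited. No scanner files were used here, so precision is limited by the number of arrays and no interval is given. Symbols came from the platform annotation; 151 members with several symbols (3 higher, 5 lower) were counted but not named. Probe sets of 1 symbol were averaged, and 72 of the 3070 genes had several. Of these genes, 3063 were found in the RefSeq table, which served for names and promoters alone. Differences, counts at 2-fold and medians of 53 gene lists and 9 marker lists were computed in Python 3.11.15 (numpy 2.4.6, pandas 2.3.3, matplotlib 3.10.9), with steps tested on simulated data. Named genes are the 15 largest differences each way, up to 6 per list with the largest size, the metallothioneins, genes on opposite sides of Control, and Cdkn1a, Mdm2, Nqo1, Hmox1, Gapdh and Cryaa; others are marked. The members and lists were chosen with earlier results of these data known. Alternatives changed the filter, scaling, probe set rule and fold.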

Additional observations from a re-analysis of the deposited data

Results flagged for a closer look

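Probe sets without a gene name were left out of the comparison, and they held more 2-fold differences than the named ones. Of 17599 unnamed probe sets, 2299 had a signal of 5 or more in either late array. With MMS in the late pair, 191 of these 2299 were at least 2-fold higher and 184 at least 2-fold lower. Of the 3320 named probe sets, 28 (0.843%) were higher and 162 (4.88%) lower. The excess of lower over higher was thus seen in the named probe sets and not in the unnamed ones. At least 2-fold above the shared Control array, with a signal of 5 or more, were 321 unnamed probe sets in MMS Day 4 and 262 in Bleomycin Day 6. They have no symbol here, so no gene is given for them.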

How the results depend on the processing

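Filter, scaling and fold moved the counts. Probe sets higher and lower in MMS Day 4 numbered 28 and 162 as reported, 171 and 277 without a signal filter (61.8% of them lower), 16 and 93 at a signal of 6, 11 and 68 with a signal of 5 in both arrays, 43 and 92 after median centring (68.1% lower), 36 and 124 after quantile normalisation of the pair, 18 and 243 after centring on olfactory receptors, and 7 and 29 at 3-fold. The median of the p53 targets was -0.28 without a filter and -1.14 to -1.47 under the other settings. The median of the metallothioneins was 3.44 at a signal of 6 and 4.35 from the brightest probe set of each gene, and none passed with a signal of 5 in both arrays. Of 80 genes named and called, 20 were under 2-fold after median centring, 14 after quantile normalisation and 3 after centring on olfactory receptors. The median of all members was -0.10 as reported, 0.08 after median centring and -0.25 after centring on olfactory receptors, so list medians and genes this close to 0, such as Slc31a1, Slc39a1, Xrcc6, Wdr48 and Cryab, have no direction. No paired analysis was possible because each condition had 1 array. Low signals kept 36 of 38 double-strand break genes and 50 of 52 capsule genes under the filter.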
